A study of Mus musculus with 6 samples.

Results

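Serum amyloid A, haptoglobin, ceruloplasmin and other acute-phase proteins are plasma proteins made mainly by the liver, and several of them rise sharply in blood when inflammatory cytokines act on hepatocytes. The group described here was made of the serum amyloid genes *Saa1*, *Saa2* and *Saa3* and the acute-phase genes *C3*, *Lcn2*, *Hp*, *Cp* and *Serpina6*. These 8 genes were chosen by name for the strong rise of *Saa3* with DHT, so the contrast between DHT and control selected them, and their values in that contrast are given as a description with no test. Of the 8 genes, 5 had a row among the 16300 genes of the expression table (*Saa3*, *Saa2*, *Cp*, *Hp* and *Serpina6*), and all 5 of these were among the 16292 genes with a mean normalized count of at least 10. *Saa1*, *C3* and *Lcn2* had no row and were not analysed here. *Saa2* and *Hp* had a control mean below 10 and passed this filter through the DHT libraries, in which they were high.

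The data came from 6 RNA-seq libraries of mouse granulosa cells (GCs), the somatic cells of the ovarian follicle that nurse the oocyte and make estrogen. GCs were taken at estrus from wild type C57BL/6J females aged 8 to 9 weeks, kept in culture for 48 h, starved of serum for 4 h, and then left as control or given 25 nM dihydrotestosterone (DHT), an androgen that aromatase cannot turn into estrogen, for 24 h in serum-free medium. There were 3 control and 3 DHT libraries, and each pooled the GCs of 5 mice. A characteristic of each sample names control or DHT and gave the groups, whereas the extraction text of the labels speaks of whole ovary and their treatment text names DHT for every sample.

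The values deposited were normalized counts, in which reads per gene are scaled by one size factor for each library. The libraries held between 36111177 and 41928585 reads on genes. Of 11 GC markers, 10 had values, *Cyp19a1* had no row, and their summed normalized count was 280491 to 290872 in control and 295414 to 314303 in DHT-treated libraries. This sum was carried by abundant genes such as *Cyp11a1* (87825 ± 8402 to 123349 ± 13071), and the list did not move one way, with 2 markers higher (*Cyp11a1* and *Hsd17b1*), 3 lower (*Inha*, *Esr2* and *Foxl2*; limma with Benjamini-Hochberg adjustment) and a median log2 difference of -0.05. *Fshr*, the least abundant of the list, was at 140 to 168 in control and 135 to 159 with DHT. The 5 oocyte markers summed to 262 to 699 in control libraries and to 32.7, 466 and 468 in DHT replicates 2, 1 and 3, so that DHT replicate 2 stood apart with few oocyte transcripts (*Gdf9* was the most and *Bmp15* the least abundant per length). In bulk samples, fewer cells of a type and less RNA per cell cannot be told apart.

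Serum amyloid A proteins are apolipoproteins of high density lipoprotein that bind and attract immune cells, and *Saa3* is the mouse member made mostly outside the liver. C/EBP family factors and NF-kB are the best known activators of these genes in inflammation, with STAT3 acting downstream of interleukin-6. The sequences upstream of the start sites are shown for *Saa3*, *Saa2* and *Cp*, the 3 measured genes for which RefSeq gave a promoter window on GRCm38.p6. Windows ran from 250 bases before to 50 bases after each RefSeq start, and the stretches printed, 5′ to 3′ on the gene's strand, end before the first base annotated as transcribed. Capitals mark matches to the C/EBP motif TTNNGNAA on either strand. The *Saa3* stretch is chr7:46715701-46715926 on the minus strand, the *Saa2* stretch is chr7:46751583-46751789 on the plus strand, and the *Cp* stretch is chr3:19956804-19956932 on the plus strand.
Saa3: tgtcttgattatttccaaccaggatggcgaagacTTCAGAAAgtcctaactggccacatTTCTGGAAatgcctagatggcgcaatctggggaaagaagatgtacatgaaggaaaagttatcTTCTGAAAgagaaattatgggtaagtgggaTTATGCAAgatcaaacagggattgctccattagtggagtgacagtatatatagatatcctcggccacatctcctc
Saa2: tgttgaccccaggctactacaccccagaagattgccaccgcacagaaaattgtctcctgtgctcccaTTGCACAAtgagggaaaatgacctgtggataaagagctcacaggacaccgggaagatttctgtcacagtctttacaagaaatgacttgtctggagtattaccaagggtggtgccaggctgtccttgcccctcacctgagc
Cp: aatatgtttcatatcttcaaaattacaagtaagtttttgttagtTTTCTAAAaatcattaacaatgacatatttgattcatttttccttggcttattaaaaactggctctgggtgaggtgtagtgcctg

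The *Saa3* window held 4 matches to the C/EBP motif, whose first bases lay at -216, -191, -129 and -99 from the RefSeq start. Over windows of equal length, *C3* held 3 matches, *Saa1* held 2, *Saa2* held 1 (at -183), *Lcn2* held 1, and *Cp* held 1 in each of its 2 windows (at -206 and at -70). Of all 32851 mouse promoter windows searched, 40.7% held at least 1 such match, and 0.852% held at least 4. No window of the 6 genes with one (*Saa1*, *Saa2*, *Saa3*, *C3*, *Lcn2* and *Cp*) matched the NF-kB consensus, which 8.46% of all windows did, nor the STAT motif TTCNNNGAA, found in 8.3% of windows. The androgen response element in its palindromic form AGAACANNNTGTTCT was absent from these windows and present in 0.00913% of all windows, and AGAACA, a single arm contained in it, occurred once, in a *Cp* window at -110, against 19% of all windows. These matches describe letters within a short window, and neither their presence nor their absence shows whether a factor binds. The promoter windows of *Saa1* and *Saa2* were 95.3% identical, whereas those of *Saa2* and *Saa3* were 50.0% identical.

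*Saa3* (ENSMUSG00000040026, GRCm38 chr7:46711998-46715700, minus strand) had the largest log2 fold change of all genes tested. Its normalized count was 67.3, 88.3 and 33.4 in control replicates 1, 2 and 3, and 442, 540.0 and 793 in DHT replicates 1, 2 and 3. Every DHT library was above every control library, and the lowest DHT value was 5.01 times the highest control value. The mean went from 63.0 ± 27.7 (SD, n = 3) in control to 592 ± 181 (SD, n = 3) with DHT, a ratio of 9.40. On the log2(value + 1) scale the difference was 3.28 with a standard error of 0.33, moderated by limma across genes. Without the intensity trend the standard error was 0.41. The coefficient of variation within a group was 44.0% in control and 30.6% in DHT-treated GCs. The values rested on 36 to 95 reads per control library and 452 to 729 reads per DHT library.

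*Saa2* (ENSMUSG00000057465, chr7:46751790-46754313, plus strand), which encodes a serum amyloid A of the acute-phase plasma, came next in rank. It was close to the lower limit of the table in control libraries, with normalized counts of 4.95, 7.43 and 5.56, and was at 32.3, 51.3 and 55.5 in DHT replicates 1, 2 and 3. The groups did not overlap, and the lowest DHT value was 4.34 times the highest control value. The means were 5.98 ± 1.30 and 46.4 ± 12.4 (SD, n = 3 each), with a log2 difference of 2.74 (SE 0.30). These means came from 19 reads in the control libraries together and 131 reads in the DHT libraries together. *Saa1* and *Saa2* transcripts were 87.3% identical in sequence, and none of the 503 windows of 150 bases, the read length, in the main *Saa2* transcript occurred in another gene. Reads shortened by trimming could match both genes, so the *Saa2* count is uncertain to that extent.

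**Figure D1:**
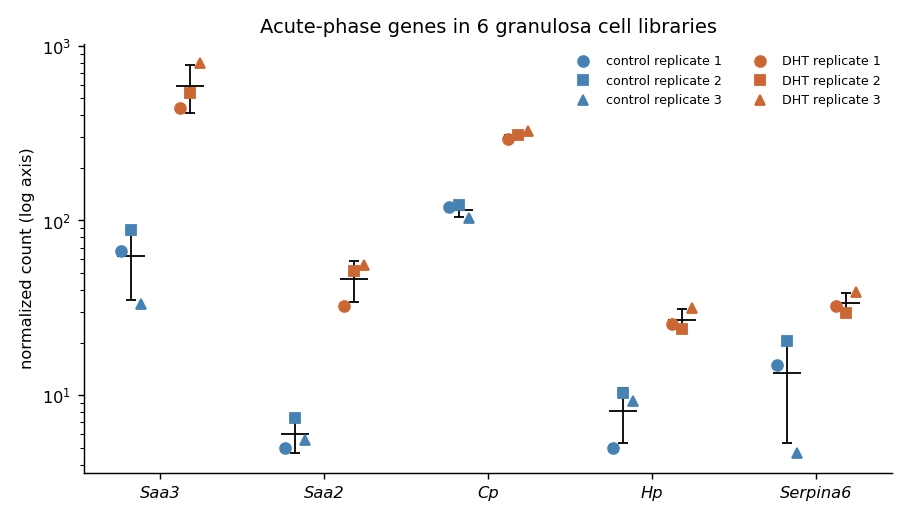
Normalized count (log axis) of *Saa3*, *Saa2*, *Cp*, *Hp* and *Serpina6* in 3 control and 3 DHT libraries, with a point for each library and black bars for the mean and SD of each group. In all 5 genes the DHT points lie above the control points, with the widest gap in *Saa3* (lowest DHT value 442, highest control value 88.3) and the narrowest in *Serpina6* (29.5 against 20.4).

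*Cp* encodes ceruloplasmin, the copper-carrying ferroxidase that oxidises iron leaving cells so that transferrin can take it up, and lies at chr3:19957054-20009145 on the plus strand (ENSMUSG00000003617). Its normalized count was 120, 123 and 103 in control replicates 1, 2 and 3 and 293, 311 and 326 in DHT replicates 1, 2 and 3. It was the steadiest of the 5 genes, with a coefficient of variation of 9.30% in control and 5.47% with DHT. The means of 115 ± 10.7 and 310.0 ± 17.0 (SD, n = 3 each) gave a log2 difference of 1.42 (SE 0.11), which ranked 63 of 16292 from the top. The exons of *Cp* share 108 bases with *Hps3* on the opposite strand, and the strand setting of the counting is not given in the sources used here. *Hps3* was at 889 ± 33.4 in control and 908 ± 28.5 with DHT (log2 difference 0.03, SE 0.05; adjusted p = 0.79, limma with Benjamini-Hochberg adjustment).

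*Hp* encodes haptoglobin, which binds free hemoglobin in plasma, and lies at chr8:109575128-109579172 on the minus strand (ENSMUSG00000031722). Its normalized counts were 4.95, 10.2 and 9.26 in control and 25.4, 24.0 and 31.6 in DHT replicates 1, 2 and 3. The groups did not overlap, though the values rested on only 5 to 11 reads per control library and 22 to 29 reads per DHT library. The means were 8.14 ± 2.81 and 27.0 ± 4.01 (SD, n = 3 each), with a log2 difference of 1.66 (SE 0.33).

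*Serpina6* encodes corticosteroid-binding globulin, the plasma carrier of glucocorticoids and progesterone, which falls rather than rises in the acute phase, and lies at chr12:103646630-103657212 on the minus strand (ENSMUSG00000060807). Its normalized counts were 14.8, 20.4 and 4.63 in control and 32.3, 29.5 and 39.2 in DHT replicates 1, 2 and 3. The groups did not overlap, but control replicates 2 and 3 differed more from each other than control replicate 2 did from DHT replicate 2. The means were 13.3 ± 8.02 and 33.6 ± 5.0 (SD, n = 3 each). The log2 difference was 1.47 with a standard error of 0.46, the largest standard error of the 5 genes, and it was 0.90 without control replicate 3 and 1.87 without control replicate 2.

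As a description only, since the contrast selected the genes and *Saa2* and *Hp* entered through their DHT values, 4 of the 5 (*Saa3*, *Saa2*, *Cp* and *Hp*) lay past both thresholds applied to all genes, which are an adjusted p no higher than 0.05 and a log2 fold change beyond 1 in either direction, where 0.908% of all tested genes were past both in the upward direction and 0.399% in the downward direction. *Serpina6* was not. In all 5 genes the groups did not overlap with DHT above control, which held for 15.9% of all tested genes, while 14.7% lay wholly below control. Since the genes were chosen for this contrast, nothing is read from these shares. Without DHT replicate 3, *Hp* was no longer past both thresholds and 3 genes were. Without control replicate 2, *Serpina6* was past them too and 5 genes were.

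**Figure D2:**
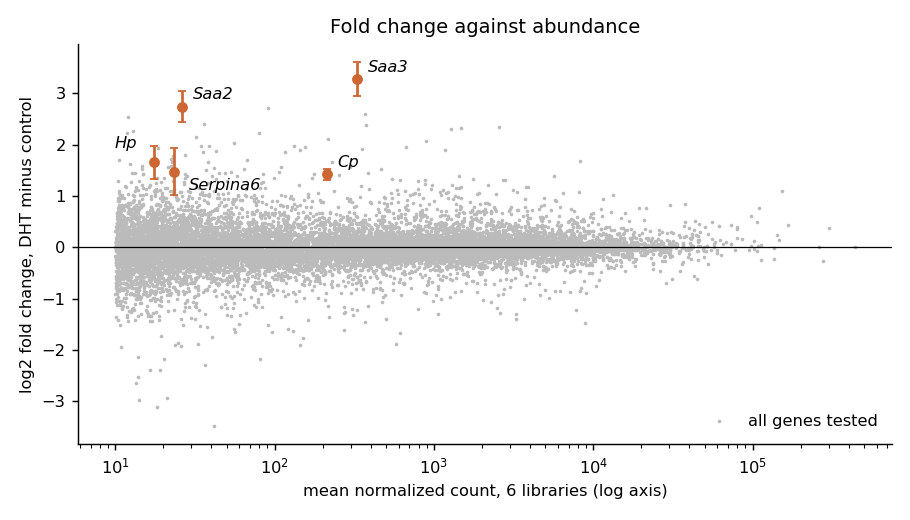
Log2 fold change (DHT minus control) against the mean normalized count over 6 libraries (log axis) for all 16292 genes tested (grey points) and the 5 acute-phase genes (orange points with the standard error). *Saa3* (3.28) and *Saa2* (2.74) lie at the top of the plot, and *Hp*, *Serpina6* and *Cp* lie between 1.42 and 1.66.

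Levels were compared between genes as RPKM, the reads per kb of the main transcript scaled to 1000000 reads on genes. Reads were counted over exons, and the annotated exons of *Saa3* cover 2606 bases, against 555 in its main transcript. For *Saa2* these lengths are 2518 and 652, and for *Cp* 9566 and 4029. The levels and percentiles below depend on this choice of length, whose effect was not tested. In control GCs *Saa3* was at 3.18, 4.14 and 1.55 in replicates 1, 2 and 3, above *Cp* at 0.780, 0.792 and 0.657. *Saa2* (0.199 to 0.297), *Serpina6* (0.0743 to 0.331) and *Hp* (0.0966 to 0.198) came below *Cp*. The control range of *Serpina6* overlapped those of both *Saa2* and *Hp*, and the lowest *Saa2* value (0.199) was barely above the highest *Hp* value (0.198). The median RPKM of all tested genes in control was 6.28, and the 25th percentile was 0.979. Thus 4 of the 5 genes were below the 25th percentile in control GCs, and *Saa3* was between it and the median.

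With DHT, *Saa3* reached 20.5, 24.7 and 36.2 on the same scale, above the 75th percentile of 19.1 in every DHT library. By its group mean, *Saa3* went from percentile 38.0 of all tested genes in control to percentile 82.2 with DHT. *Cp* at 1.87, 1.96 and 2.05 and *Saa2* at 1.27, 2.00 and 2.16 had ranges that overlapped each other. *Serpina6* (0.466 to 0.619) and *Hp* (0.453 to 0.595) also overlapped each other and were below the 25th percentile of 0.957. *Saa3* was therefore the one gene of the 5 above the median of all genes in DHT-treated GCs.

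**Figure D3:**
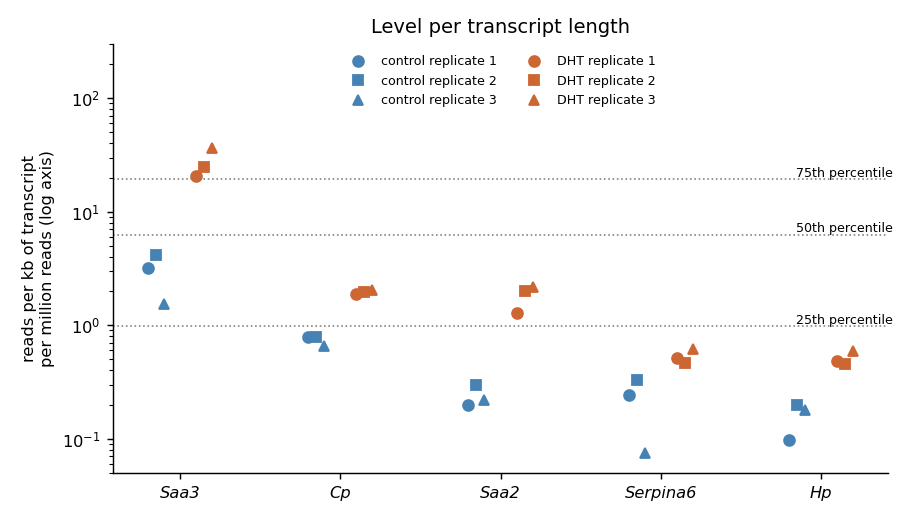
RPKM (log axis) of the 5 genes in each control and DHT library, with dotted lines at the 25th, 50th and 75th percentiles of all tested genes in control. *Saa3* lies between the 25th and 50th percentile lines in control (1.55 to 4.14) and above the 75th with DHT (20.5 to 36.2), while the other 4 genes lie below the 25th percentile line in control.

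The 5 genes varied together within groups in part. Control replicate 2 was the highest control library for 5 of 5 genes, as it was for 30.3% of all tested genes, and DHT replicate 3 was the highest DHT library for 5 of 5, as it was for 35.4% of all tested genes. Over the 6 libraries, the deviations from the group mean on the log2 scale had a Pearson r of 0.984 between *Saa3* and *Cp* and of 0.919 between *Saa3* and *Serpina6*. The r was 0.597 between *Saa3* and *Saa2* and 0.0721 between *Saa3* and *Hp*. These are descriptions over 6 libraries that share their scaling, and *Hp* and *Saa2* had few reads.

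The 5 genes with the pattern most like *Saa3*, by Pearson r of log2(value + 1) over the 6 libraries among genes with a mean of at least 50, were *Lpin3*, *Klc2*, *Slc25a18*, *Tmem72* and *Aup1*, each with an r of 0.994 (0.9935 to 0.9943). Group means were not removed here, so this r takes in the step from control to DHT for which *Saa3* was chosen. The log2 differences of these 5 genes were 0.53, 0.37, 0.78, 1.95 and 0.22 in that order. None could exceed that of *Saa3*, which was the largest of all genes tested. *Tmem72* had normalized counts of 69.3, 80.8 and 43.5 in control and 220.2, 260 and 254 with DHT. It shared with *Saa3* the order of the control libraries, but its highest DHT library was replicate 2.

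The serum amyloid A genes lie in a cluster on chromosome 7, with *Saa4* and *Saa1*, which were not analysed here, between *Saa3* and *Saa2*. The start sites of *Saa3* and *Saa2* are 36.1 kb apart. The values of the neighbouring protein-coding genes were not used to choose the group and could be tested. *Saal1*, whose start lies 5.02 kb from that of *Saa3* on the side away from the cluster, had normalized counts of 1187, 1208 and 1146 in control and 1377, 1469 and 1647 in DHT replicates 1, 2 and 3. It rose by 0.34 on the log2 scale (SE 0.07; adjusted p = 0.0119, limma with Benjamini-Hochberg adjustment), and as in *Saa3* the highest library of each group was control replicate 2 and DHT replicate 3.

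*Tph1*, which encodes a tryptophan hydroxylase of serotonin synthesis and starts 43.2 kb away on the same side, rose from 1435 ± 382 to 2288 ± 395 (SD, n = 3 each; log2 difference 0.69, SE 0.18; adjusted p = 0.0405, limma with Benjamini-Hochberg adjustment). On the other side, *Hps5* and *Gtf2h1* start 80.4 kb from *Saa3*. Neither passed the test, with log2 differences of 0.04 (SE 0.04; adjusted p = 0.65, limma with Benjamini-Hochberg adjustment) and -0.11 (SE 0.04; adjusted p = 0.15). Over all tested genes, 6.52% were higher and 4.66% lower with DHT at an adjusted p of at most 0.05.

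**Figure D4:**
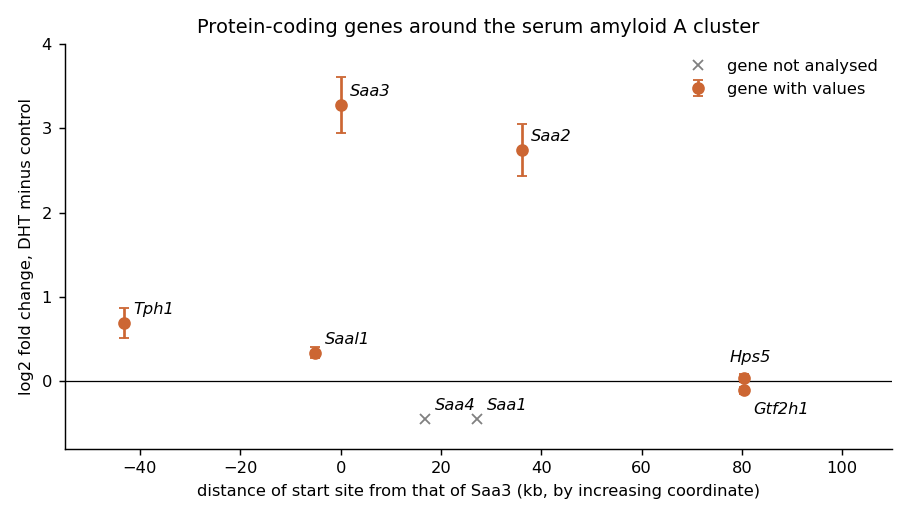
Log2 fold change (DHT minus control, with the standard error) of the protein-coding genes around the serum amyloid A cluster against the distance of their start sites from that of *Saa3* in kb, with grey crosses, whose height carries no value, for genes not analysed. *Saa3* and *Saa2* stand at 3.28 and 2.74, *Saal1* and *Tph1* at 0.34 and 0.69, and *Hps5* and *Gtf2h1* near 0.

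None of the other acute-phase genes tested passed the test for a rise. Of 35 other genes listed as rising in the acute phase, 14 were tested, 0 rose and 3 fell past an adjusted p of 0.05, and 3 more had an unadjusted p under 0.05 in the upward direction (limma with Benjamini-Hochberg adjustment, with the same test for every list). Over all tested genes, 13.4% were higher and 11.8% lower at an unadjusted p under 0.05, and 6.52% were higher and 4.66% lower past the adjusted threshold. With 14 genes tested, a count of 0 rises is near the 6.52% share and is not read as a result about the list. The genes that fell were those of both ferritin chains, which store iron, and *Vnn1*, a pantetheinase. *Fth1* went from 50828 ± 4617 to 34457 ± 242 (SD, n = 3 each), a log2 difference of -0.56 (SE 0.06; adjusted p = 0.00069, limma with Benjamini-Hochberg adjustment). *Ftl1* fell by 0.24 on the log2 scale (adjusted p = 0.0389 by limma) and *Vnn1* fell by 0.56 (adjusted p = 0.0272 by limma). None of the 3 passed the fold threshold, and 1 gene of this list passed the test with the replicate number as a block, and 1 when control replicate 2, DHT replicate 2 or DHT replicate 3 was left out.

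*Mt1*, a metallothionein that binds zinc and copper and the most abundant gene of the list that did not pass, was at a normalized count of 14459 ± 206 in control and 14259 ± 1656 with DHT (log2 difference -0.03, SE 0.07). *Ptx3*, a pentraxin made by GCs and cumulus cells and picked out here after its values were seen, had the highest log2 difference of the list at 0.65 (SE 0.20; adjusted p = 0.0705 by limma). The median log2 difference of the 14 genes was 0.12, beside -0.01 over all tested genes.

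Of 12 genes listed as falling in the acute phase, 5 were tested and 0 passed, beside 6.52% higher and 4.66% lower over all tested genes. At an unadjusted p under 0.05 there were 2, both downward (limma), beside 11.8% of all tested genes lower at that p. Without DHT replicate 1, 1 passed. These 2 genes, named after their values were seen, were *Apoa1*, encoding the main protein of high density lipoprotein (log2 difference -1.76, SE 0.51; adjusted p = 0.0591 by limma), and *Trf*, encoding transferrin (log2 difference -0.45, SE 0.13; adjusted p = 0.0549 by limma). *Apoa1* had normalized counts of 194, 212 and 252 in control and 173, 30.5 and 47.9 in DHT replicates 1, 2 and 3, so that DHT replicate 1 lay close to the control libraries. *Igf1*, the most abundant of the 5, was at 11104 ± 2255 and 11558 ± 1893 (SD, n = 3 each). The median of the list was -0.42. *Alb*, the albumin gene of hepatocytes, had no row.

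The complement genes, among which *C3* would be central, showed no gene past the test. Of 31 listed, 17 were tested and 0 passed, beside 6.52% higher and 4.66% lower over all tested genes. At an unadjusted p under 0.05 there were 3, 1 upward and 2 downward (limma), beside 13.4% and 11.8% of all tested genes. The median log2 difference was -0.02, and nothing is read from these counts about the list. Without control replicate 3, 1 passed. *Clu*, which encodes clusterin, an extracellular chaperone that blocks the terminal complement complex, was the most abundant of them. Its normalized count was 260230 ± 38765 in control and 338403 ± 38434 with DHT (SD, n = 3 each), a log2 difference of 0.38 (SE 0.12; adjusted p = 0.0836 by limma).

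Of 39 listed genes of cytokine, NF-kB, STAT3 and C/EBP signalling, 34 were tested, 3 rose and 2 fell, with a median log2 difference of -0.02. These counts are close to the 6.52% and 4.66% of all tested genes that rose and fell, so nothing is read from them about the list. *Rel*, which encodes the NF-kB subunit c-Rel, had normalized counts of 1993, 2063 and 2368 in control and 4309, 4477 and 4713 in DHT replicates 1, 2 and 3. Its groups were far apart, and it was the one gene of the list past both thresholds, with a log2 difference of 1.07 (SE 0.07; adjusted p = 4.7e-05, limma with Benjamini-Hochberg adjustment). *Cebpb*, encoding C/EBP beta, rose from 3498 ± 222 to 4355 ± 70.9 (log2 difference 0.32, SE 0.05; adjusted p = 0.0038 by limma). *Nfkbia*, the NF-kB inhibitor that is also a target of NF-kB, rose by 0.23 on the log2 scale (adjusted p = 0.049 by limma).

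The NF-kB subunit gene *Rela* was at 3367 ± 135 and 3502 ± 61.6 (log2 difference 0.06, SE 0.04; adjusted p = 0.44 by limma). *Nr3c1*, the glucocorticoid receptor gene, and *Jak1*, a kinase of cytokine receptors, each fell by 0.22 on the log2 scale (adjusted p = 0.037 and 0.021 by limma). The count of 5 genes that passed became 2 with the replicate number as a block and 2 without control replicate 1, DHT replicate 2 or DHT replicate 3, and it became 3 without DHT replicate 1. *Il6*, the gene of the cytokine that drives the hepatic response and named outside the rule, had normalized counts between 6.93 and 13.0 in control and between 9.79 and 11.7 with DHT.

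The receptors and partners of the 8 proteins include the iron handling proteins that work with ceruloplasmin and the proteins that act on heme and glucocorticoids. Of 30 listed genes, 24 were tested, 1 rose and 5 fell, beside 6.52% and 4.66% of all tested genes, with a median log2 difference of -0.14. *Hmox1*, which encodes the heme oxygenase that breaks down heme, had normalized counts of 11991, 9455 and 11208 in control and 4652, 4655 and 4697 in DHT replicates 1, 2 and 3. It was the one gene of the list past both thresholds (log2 difference -1.21, SE 0.07; adjusted p = 4.9e-05, limma with Benjamini-Hochberg adjustment).

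*Heph*, encoding hephaestin, the membrane-bound ferroxidase related to ceruloplasmin, fell by 0.71 on the log2 scale, from 5683 ± 1155 to 3444 ± 315 (SE 0.13; adjusted p = 0.0089 by limma). *Slc40a1*, encoding the iron exporter ferroportin, was at 30731 ± 3543 and 25543 ± 1387 (log2 difference -0.26, SE 0.08; adjusted p = 0.0717 by limma). *Heph*, *Fth1* and *Hmox1* were named as the largest falls of this list among the genes that passed. The direction of *Cp* came with the choice of the group, so no contrast between *Cp* and these genes is read. Per transcript length, *Heph* had an RPKM of 31.2 in control, against 0.743 for *Cp*.

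The gene that rose was *Hsd11b2*, which encodes the enzyme that inactivates glucocorticoids. Its normalized counts were 697, 691 and 382 in control and 948, 1081 and 1306 in DHT replicates 1, 2 and 3, without overlap (log2 difference 0.95, SE 0.22; adjusted p = 0.0234, limma with Benjamini-Hochberg adjustment). As in *Serpina6*, the lowest control library was replicate 3 and the highest DHT library was replicate 3. The count of 6 genes that passed became 3 with the replicate number as a block, and 3 without DHT replicate 2 or DHT replicate 3.

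**Figure D5:**
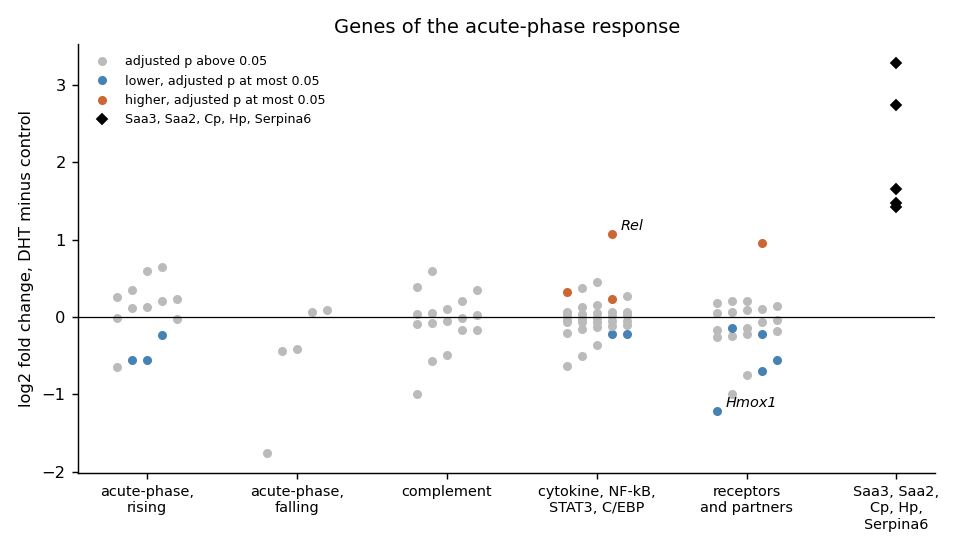
Log2 fold change (DHT minus control) of every tested gene of 5 lists of the acute-phase response, with orange for genes higher and blue for genes lower at an adjusted p of at most 0.05, grey for the others and black diamonds for *Saa3*, *Saa2*, *Cp*, *Hp* and *Serpina6*, which the contrast selected. *Rel* (1.07) and *Hmox1* (-1.21) are the list genes past both thresholds.

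Several cell types other than GCs express serum amyloid genes, and the markers of those that the cultures could hold were read beside the 5 genes. None of 8 neutrophil markers had a row. Of 10 macrophage markers, 8 had values, with *Adgre1* and *C1qa* without a row, and their summed normalized count was 547 to 648 in control and 434 to 690 with DHT, ranges that overlap. *Lyz2*, the most abundant, was at 234 to 319 in control and 176 to 362 with DHT, and *Ptprc*, the least abundant, was at 5.94 to 11.1 and 12 to 15.7 (log2 difference 0.72, SE 0.33; adjusted p = 0.22, limma with Benjamini-Hochberg adjustment). Of the 8, *Csf1r* fell from 102 ± 11.4 to 64.9 ± 5.73 (log2 difference -0.64; adjusted p = 0.027, limma with Benjamini-Hochberg adjustment), and 0 rose. Of 5 adipocyte markers, 1 (*Fabp4*) had values, at 22.8 to 31.5 in control and 29.4 to 39.2 with DHT.

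The 9 markers of ovarian surface epithelium and mesothelium all had values, and their summed normalized count was 4636 to 5376 in control and 3699 to 5178 with DHT. None of the 9 passed the test, and *Krt8*, the most abundant, was at 2216 to 2565 in control and 1844 to 2226 with DHT. *Lrrn4*, the least abundant, had normalized counts of 18.8, 19.5 and 14.8 in control and 7.83, 29.5 and 44.6 in DHT replicates 1, 2 and 3. The log2 difference was above 0 in 4 of the 9 markers and below 0 in 5, with a median of -0.11. The sum was carried by *Krt8* and *Krt18*, which had lower means with DHT, as had *Krt19*, *Wt1* and the mesothelial marker *Upk3b* (log2 difference -0.11), while the mesothelial markers *Msln* and *Upk1b* had the highest log2 differences of the list. These genes, other than *Krt8*, were named after their values were seen. *Msln* had normalized counts of 102, 159 and 68.6 in control and 93.0, 180.0 and 214 in DHT replicates 1, 2 and 3 (log2 difference 0.56, SE 0.35; adjusted p = 0.37, limma with Benjamini-Hochberg adjustment). *Upk1b* was at 59.3 to 93.9 in control and at 53.8, 181 and 175 in DHT replicates 1, 2 and 3 (log2 difference 0.68, SE 0.42; adjusted p = 0.36 by limma). In *Lrrn4* and *Msln* the order of the libraries within each group was that of *Saa3*, and DHT replicate 1 had the lowest sum of the list. The part of these cells in the *Saa3* values, between or within groups, was not tested.

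Of 5 endothelial markers, 3 had values, and they summed to 101 to 147 in control and 112 to 169 with DHT (*Pecam1* the most and *Kdr* the least abundant per length). Of 6 theca and stroma markers, 4 had values, and they summed to 1534 to 1716 in control and 1219 to 1601 with DHT (*Col1a1* the most and *Lum* the least abundant per length). *Cyp17a1* and *Insl3*, the defining markers of theca cells, had no row. DHT replicate 2, which had the fewest oocyte transcripts, held neither the lowest nor the highest *Saa3* value of its group. Without it, the log2 difference was 3.32 for *Saa3* and 2.65 for *Saa2*.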

How the data were processed

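Total RNA of GCs was sequenced as paired reads of 150 bases. According to the methods and the submitters' processing notes, the authors trimmed reads with Trimmomatic 0.36, aligned them to GRCm38 by STAR 2.5.2b, and featureCounts of Subread 1.5.2 assigned uniquely mapped reads to exons. The annotation release and strand setting are not given in the sources used here. The signal that the authors deposited is a normalized count per gene, scaled by the DESeq2 size factor of its library. Dividing by the common step of each library gave whole reads for 100% of values (tolerance 0.1 read). These reads served for depth and for levels per transcript length and entered no test. Columns with the authors' own log2 fold change, p-value and adjusted p-value, and a second table limited to the genes they called, were not used.

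The log2(value + 1) of each normalized count was fitted in limma (version 3.58.1, R 4.3.3) using an intensity trend. Standard errors are the moderated ones of this fit, which borrows information across genes. Genes entered with a mean of 10 or more, and p-values were adjusted by Benjamini-Hochberg over all genes tested. This pseudocount understates the change of low genes, so that fold changes are on the log2(value + 1) scale. The labels do not say which libraries came from separate isolations, so p-values measure the spread between these libraries. For 3 libraries against 3, the smallest p of an exact permutation test is 0.1. The 8 genes and all lists were chosen with earlier results of these data known. Named were the 8 genes, of each list up to 3 genes with the largest change in each direction among those that passed and the most abundant that did not, the 5 genes most like *Saa3*, the neighbours of its cluster, and the most and least abundant markers of each list. The markers that passed the test (*Hsd17b1*, *Inha*, *Esr2*, *Foxl2* and *Csf1r*) were named after their values were seen, as were other exceptions stated in the text. Alternatives were pseudocounts of 0.5 and 8, no filter and a mean of at least 50, no trend, the replicate block, each library left out in turn and quantile normalization. Positions and main transcripts are those of GENCODE M21 and promoter windows those of RefSeq on GRCm38.p6, where *Hp* and *Serpina6* had none. The test was checked on simulated data.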

Additional observations from a re-analysis of the deposited data

How the results depend on the processing

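The direction of DHT against control stayed upward for *Saa3*, *Saa2*, *Cp*, *Hp* and *Serpina6* under every alternative run, a direction that the choice of these genes fixes and that supports nothing. Leaving out each library in turn gave log2 differences of 2.88 to 3.57 for *Saa3*, 2.60 to 2.98 for *Saa2*, 1.35 to 1.47 for *Cp*, 1.37 to 1.83 for *Hp* and 0.90 to 1.87 for *Serpina6*. A pseudocount of 8 lowered *Saa2* to 1.94 and *Hp* to 1.13, by its construction at low counts. With a mean of at least 50, 131 genes were called in place of 213 and 2 of the 5 acute-phase genes were past both thresholds in place of 4, since *Saa2*, *Hp* and *Serpina6* were no longer tested. Leaving out each library in turn gave 140 to 285 called genes and 3 to 5 of the acute-phase genes. The rising list had 3 genes past the test, 1 without the intensity trend, 1 with the replicate block and 1 to 4 over the libraries left out. The falling list had 0, 1 with a mean of at least 50, and 0 to 1 over the libraries left out. The complement list had 0, 2 with quantile normalization, which was chosen after seeing the data, and 0 to 1 over the libraries left out. The signalling list had 5, 2 without the trend, 2 with the block and 2 to 4 over the libraries left out. The receptor list had 6, 2 without the trend, 3 with the block and 3 to 6 over the libraries left out. The cause of these changes was not tested.

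Control and DHT libraries share replicate numbers, but the deviations of same-numbered libraries correlated at 0.00583, 0.0666 and -0.238 over genes, so the numbers were not taken to pair the libraries. The planned edgeR, DESeq2 and TMM alternatives were not run, and the reads recovered from the normalized counts served for depth and levels only. The few reads of *Saa2*, *Hp* and *Serpina6* limit the precision of their fold changes.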
